A study of Homo sapiens with 27 samples.

Results

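Epidermal growth factor (EGF) was given to cells at the same time as oncostatin M (OSM, an inflammatory cytokine related to interleukin-6) together with transforming growth factor beta (TGFB). The comparison sets the 3 libraries labelled EGF+OSM+TGFB against the 3 labelled OSM+TGFB, 6 of the 27 libraries in the study, all chosen by their labels. The cells were of the MCF10A line, an established human line of breast epithelium that does not form tumours. They were seeded on collagen-1 in a growth medium with 20 ng/ml EGF, washed 6 h later and held for 18 h without growth factors. OSM and TGFB (both groups) and EGF (1 group) were then given at 10 ng/ml each in fresh medium free of growth factors, and polyadenylated RNA was taken 24 h later for stranded RNA-seq. The other 24 h groups that serve here as references received PBS, EGF, OSM, EGF+OSM, TGFB or EGF+TGFB, with 3 libraries each. The labels do not say that the 3 libraries of a group came from separate cultures, so each p-value below measures only a spread between libraries. That spread was estimated with all 9 groups (27 libraries) fitted together, not from the 6 libraries alone. MCF10A is 1 line, and all groups had been grown with EGF before the period without it.

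EGF binds the receptor EGFR and signals through the RAS-ERK and PI3K-AKT pathways; MCF10A cells depend on it to divide. OSM acts through the shared receptor subunit gp130 and the transcription factor STAT3, and TGFB acts through SMAD transcription factors, restrains division of epithelial cells and promotes matrix production. ERK signalling induces its own inhibitors, and AKT signalling keeps FOXO transcription factors, which drive starvation genes, out of the nucleus.

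The OSM+TGFB libraries held 39.5 to 40.1 M (M, counts in units of 1e6) estimated counts and the EGF+OSM+TGFB libraries 32.8 to 47.1 M, against 30.1 to 52.9 M over all 27. Levels are given as CPM, a gene's counts per 1e6 counts, scaled by TMM, a correction for the composition of each library. The 13 epithelial marker genes of MCF10A summed to between 39262 and 42573 unscaled CPM with OSM+TGFB and to between 45558 and 48939 with EGF added. The 9 fibroblast markers summed to 443 to 493 and 268 to 298, with most of the sum from COL1A1, DCN and FAP, 8 leukocyte markers to 119 to 121 and 84.5 to 96.0, and 6 endothelial markers to 2.27 to 2.66 and 1.83 to 2.18. Most of the leukocyte sum came from CSF1R, CD68 and CD14, with 12071, 9640 and 3189 counts over the 6 libraries together. Other markers were nearly absent: over the same 6 libraries COL3A1 had 4 counts, THY1 6, PTPRC 12, CD3E 2 and MS4A1 0. In these bulk libraries, fewer cells of a kind and less RNA per cell cannot be told apart.

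Adding EGF to OSM+TGFB changed 8323 of 16611 rows tested (50.1%; edgeR quasi-likelihood test, Benjamini-Hochberg adjusted p under 0.05). Of these, 4192 were higher (25.2%) and 4131 lower (24.9%), and the median log2 fold change over all rows was 0.002. Changes of at least 2-fold leaned downwards, with 613 rows higher (3.69%) and 1202 lower (7.24%). The 3 libraries of 1 group all lay above the 3 of the other in 9541 rows (57.4%). Each fold change below is a log2 value, EGF+OSM+TGFB against OSM+TGFB, ± its standard error (SE), with 3 libraries a side. Falls are printed with their minus sign.

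The deepest falls included genes of secreted proteins, cell contact, matrix breakdown and starvation. The 12 lowest genes by the naming rule were IP6K3, HP, OLR1, GJA1, MMP13, MMP3, LY6D, C1R, SLC47A2, AXIN2, FBXO32 and AMTN. IP6K3, an inositol phosphate kinase at chr6:33721662-33746905 (GRCh38, GENCODE), measured 9.17, 13.2 and 8.10 CPM with OSM+TGFB and 0.220, 0.279 and 0.0940 CPM with EGF added, a change of -5.66 ± 0.41 (adjusted p = 2.9e-10). HP, which encodes the haemoglobin scavenger haptoglobin, measured 9.14, 21.2 and 19.4 CPM with OSM+TGFB and 0.171, 0.837 and 0.125 CPM with EGF added, a change of -5.55 ± 0.51 (adjusted p = 2.0e-08). Its OSM+TGFB libraries spanned a wide range, yet the lowest of them was far above the highest with EGF. OLR1, a scavenger receptor for oxidised lipoprotein, measured 11.6, 17.1 and 12.7 CPM with OSM+TGFB and 0.294, 0.209 and 0.376 CPM with EGF added, a change of -5.53 ± 0.32 (adjusted p = 4.7e-12). GJA1, which encodes the gap junction protein connexin 43, measured 40.6, 42.1 and 29.1 CPM with OSM+TGFB and 1.30, 1.39 and 0.752 CPM with EGF added, a change of -5.01 ± 0.37 (adjusted p = 5.2e-10). For these 4 genes no library with EGF came near any without it.

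AMTN, which encodes the enamel matrix protein amelotin, measured 299, 341 and 303 CPM with OSM+TGFB and 17.7, 23.8 and 14.5 CPM with EGF added and changed by -4.08 ± 0.19 (adjusted p = 1.8e-12). SLC47A2, a proton antiporter for organic cations, changed by -4.26 ± 0.23 from 11.1 to 0.591 CPM, and LY6D, a surface protein of stratified epithelia, by -4.36 ± 0.33 from 11.1 to 0.557 CPM. AXIN2, an inhibitor and well-known target of Wnt signalling, fell from 5.50 to 0.309 CPM, by -4.15 ± 0.33. The EGF libraries of all 12 genes lay below every OSM+TGFB library, as the naming rule required.

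**Figure D1:**
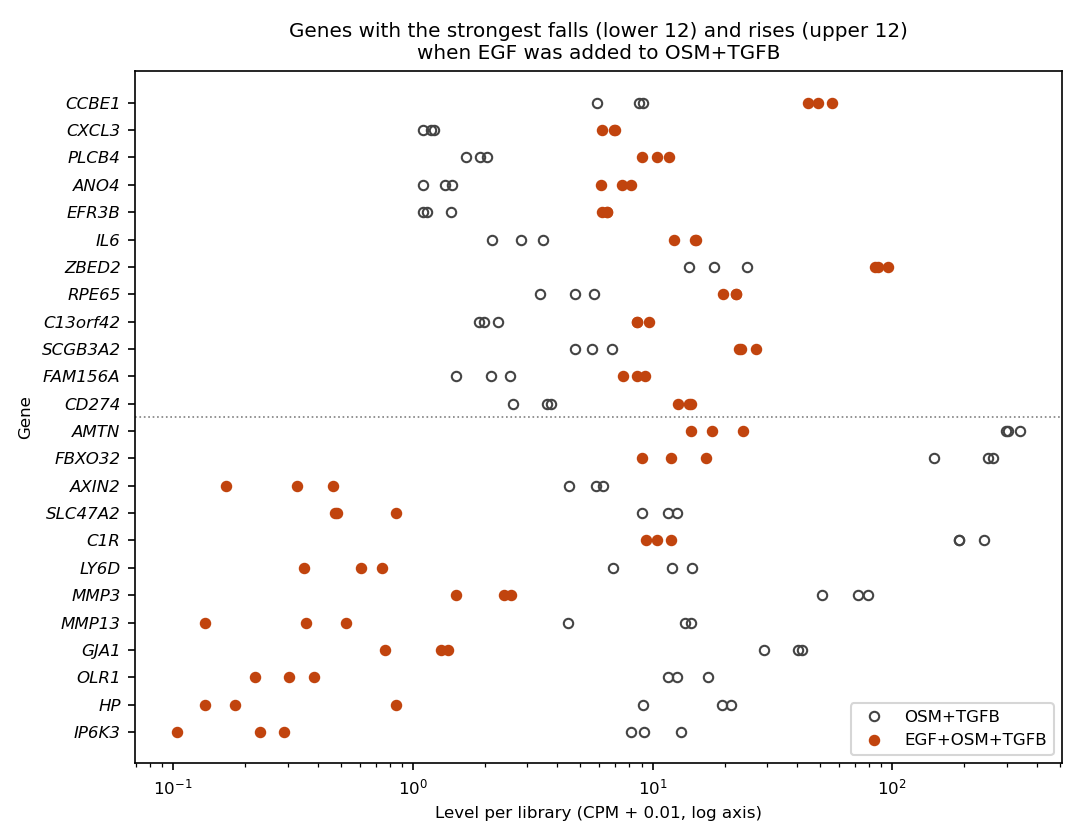
Level of the 24 genes with the strongest change in each library, on a log axis of CPM + 0.01, with open circles for OSM+TGFB and filled circles for EGF+OSM+TGFB. The 12 genes above the dotted line rose and the 12 below it fell, with no overlap between the groups, as the naming rule required. GJA1, for example, is at 37.2 against 1.15 CPM on average.

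The rises were shallower, at most 2.66 ± 0.17 by the same rule, and included cytokine genes. CCBE1, a secreted protein of lymphatic vessel growth at chr18:59430939-59697662, measured 8.81, 5.84 and 9.11 CPM with OSM+TGFB and 56.1, 44.5 and 49.2 CPM with EGF added and changed by 2.66 ± 0.17 (adjusted p = 2.3e-11). CXCL3, a neutrophil chemokine, measured 1.18, 1.09 and 1.22 CPM with OSM+TGFB and 6.17, 6.94 and 6.90 CPM with EGF added, a change of 2.52 ± 0.21 (adjusted p = 9.9e-10). IL6, a cytokine that also signals through gp130, measured 2.13, 2.82 and 3.48 CPM with OSM+TGFB and 15.1, 12.3 and 15.0 CPM with EGF added, a change of 2.33 ± 0.22 (adjusted p = 1.4e-08). CD274, which encodes the immune checkpoint ligand PD-L1, measured 2.61, 3.62 and 3.77 CPM with OSM+TGFB and 14.4, 12.7 and 14.2 CPM with EGF added, a change of 2.05 ± 0.18 (adjusted p = 2.4e-09). All 4 genes had every EGF library above every library without it, as the naming rule required.

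Other strong rises were PLCB4, a phospholipase C, at 2.48 ± 0.16 from 1.86 to 10.4 CPM; ANO4, of the anoctamin membrane protein family, at 2.48 ± 0.20; EFR3B, a membrane scaffold protein, at 2.37 ± 0.23; and ZBED2, a transcription factor, at 2.23 ± 0.18 from 19.0 to 89.5 CPM. RPE65, a retinoid isomerase, rose by 2.22 ± 0.20, C13orf42 by 2.14 ± 0.17 and SCGB3A2, a secretoglobin, by 2.10 ± 0.15. FAM156A rose by 2.05 ± 0.53 (adjusted p = 0.00304), but it has a near-identical neighbour, so how its reads were shared is uncertain.

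The gene lists that follow are read against the share of all rows called in each direction (25.2% higher and 24.9% lower). Of 8 genes of EGF family ligands tested, 7 of them ligands of EGFR, 6 rose and none fell, with a median of 0.72. AREG, which encodes amphiregulin, measured 24.6, 20.9 and 33.5 CPM with OSM+TGFB and 91.1, 77.6 and 114 CPM with EGF added and rose by 1.84 ± 0.23 (adjusted p = 1.6e-06). TGFA, which encodes transforming growth factor alpha, measured 98.0, 94.9 and 114 CPM with OSM+TGFB and 266, 246 and 273 CPM with EGF added and rose by 1.36 ± 0.09 (adjusted p = 3.0e-11). In both genes every library with EGF was more than 2 times as high as every library without it. NRG1, the member that binds ERBB3 and ERBB4 and not EGFR, rose by 0.90 ± 0.19 from 8.22 to 15.3 CPM. The EGF gene itself, at a very low level, went from 0.172 to 0.366 CPM, at 1.10 ± 0.43 (adjusted p = 0.0368), EPGN was at 0.53 ± 0.17 (adjusted p = 0.0105) and HBEGF at 0.33 ± 0.10 (adjusted p = 0.0114). These 3 lost the call when OSM+TGFB replicate 1 was left out, which took the list to 3 called members; the EGF gene also lost it without EGF+OSM+TGFB replicate 1, without OSM+TGFB replicate 2, without a filter, from the 6 libraries alone and with DESeq2. EPGN and HBEGF also lost it without EGF+OSM+TGFB replicate 3, and HBEGF without EGF+OSM+TGFB replicate 2. EREG was at 0.12 ± 0.24 (adjusted p = 0.706) and BTC at -0.02 ± 0.21 (adjusted p = 0.939).

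Among 9 ERBB receptors and brakes, 2 rose and 6 fell (median -0.29). ERRFI1, which encodes the EGFR inhibitor MIG6, measured 342, 346 and 292 CPM with OSM+TGFB and 117, 128 and 89.9 CPM with EGF added and fell with no overlap, by -1.55 ± 0.14 (adjusted p = 9.1e-09). ERBB3, a kinase-poor partner receptor, fell by -1.29 ± 0.17 from 33.3 to 13.7 CPM, CBLB, a ubiquitin ligase that marks EGFR for breakdown, by -1.16 ± 0.12, and the receptor brake LRIG1 by -0.63 ± 0.09. ERBB2 fell by -0.23 ± 0.06, while CBL rose by 0.30 ± 0.05 and the phosphatase gene PTPN1 by 0.42 ± 0.05. EGFR was at -0.10 ± 0.06 (adjusted p = 0.124).

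Of 20 ERK targets and feedback genes, 16 rose and 1 fell (median 0.88), or 16 and 2 without EGF+OSM+TGFB replicate 1. The cyclin gene CCND1 measured 38.8, 30.1 and 42.8 CPM with OSM+TGFB and 125, 122 and 140.4 CPM with EGF added and rose by 1.79 ± 0.14 (adjusted p = 8.6e-10). DUSP4, a nuclear phosphatase that inactivates ERK, measured 87.7, 72.6 and 102 CPM with OSM+TGFB and 315, 302 and 286 CPM with EGF added and rose by 1.78 ± 0.15 (adjusted p = 5.2e-09). The 3 EGF libraries were the highest of the 6 for both. ETV4 and ETV5, ETS transcription factors downstream of ERK, rose by 1.81 ± 0.23 and 1.56 ± 0.16, the ERK inhibitor SPRY4 by 1.49 ± 0.17 and the AP-1 factor FOSL1 by 0.83 ± 0.12. EPHA4, an ephrin receptor, fell by -1.97 ± 0.15 from 8.46 to 2.16 CPM. DUSP6, a cytoplasmic ERK phosphatase often read as a gauge of the pathway, measured 66.5, 57.1 and 63.9 CPM with OSM+TGFB and 71.1, 71.2 and 57.6 CPM with EGF added, with overlapping groups and a change of 0.09 ± 0.17 (adjusted p = 0.674). SPRY1 was at -0.48 ± 0.25 (adjusted p = 0.115), and at -0.92 and called without EGF+OSM+TGFB replicate 1.

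Of 16 AP-1 and immediate early factors, 3 rose and 10 fell (median -0.55). EGR1, a zinc-finger factor induced within minutes of growth factor treatment, measured 97.2, 91.9 and 99.6 CPM with OSM+TGFB and 20.4, 26.1 and 18.5 CPM with EGF added, with every EGF library far below every library without it. It changed by -2.15 ± 0.18 (adjusted p = 4.3e-09). EGR3 changed by -1.32 ± 0.27, FOSB by -1.37 ± 0.22, FOS by -0.72 ± 0.10 and the stress factor ATF3 by -1.42 ± 0.24, all falls. The promoter of EGR1 is printed because it carries serum response elements, the sites through which ERK is known to act on this gene. The window is the last 120 bases before the RefSeq start (GRCh38.p14, chr5:138465359-138465478, plus strand), 5′ to 3′, with 2 CArG boxes, the core of such elements, in capitals. Such a box, searched on both strands, was found in 1.07% of the 11408 tested genes with a promoter of 250 bases in the RefSeq table.
EGR1: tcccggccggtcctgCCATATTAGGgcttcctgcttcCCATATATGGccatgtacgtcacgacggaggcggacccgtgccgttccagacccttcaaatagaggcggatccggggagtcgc

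The promoter of AREG (GRCh38.p14, chr4:74445056-74445135, plus strand) is shown beside it as a gene of the same pathway that rose. The last 80 bases before its start hold a cAMP response element, TGACGTCA, in capitals, which reads the same on both strands and was found in 2.75% of those 11408 promoters. The promoter of GJA1 (chr6:121435566-121435645, plus strand) is shown as that of a gene among the deepest falls, with an AP-1 site, TGANTCA searched on both strands, in capitals. That motif was in 4.46% of tested promoters, in 26 of 431 promoters of rows at least 2-fold higher (6.03%) and in 64 of 780 at least 2-fold lower (8.21%). Over all 27305 promoters, tested or not, the share with this motif was 6.60%. A match is a description of the letters, and these promoters were chosen after values and matches were known.
AREG: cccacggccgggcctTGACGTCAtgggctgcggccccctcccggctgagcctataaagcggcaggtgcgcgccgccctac
GJA1: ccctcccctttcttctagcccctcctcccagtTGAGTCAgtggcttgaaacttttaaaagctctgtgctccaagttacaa

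**Figure D2:**
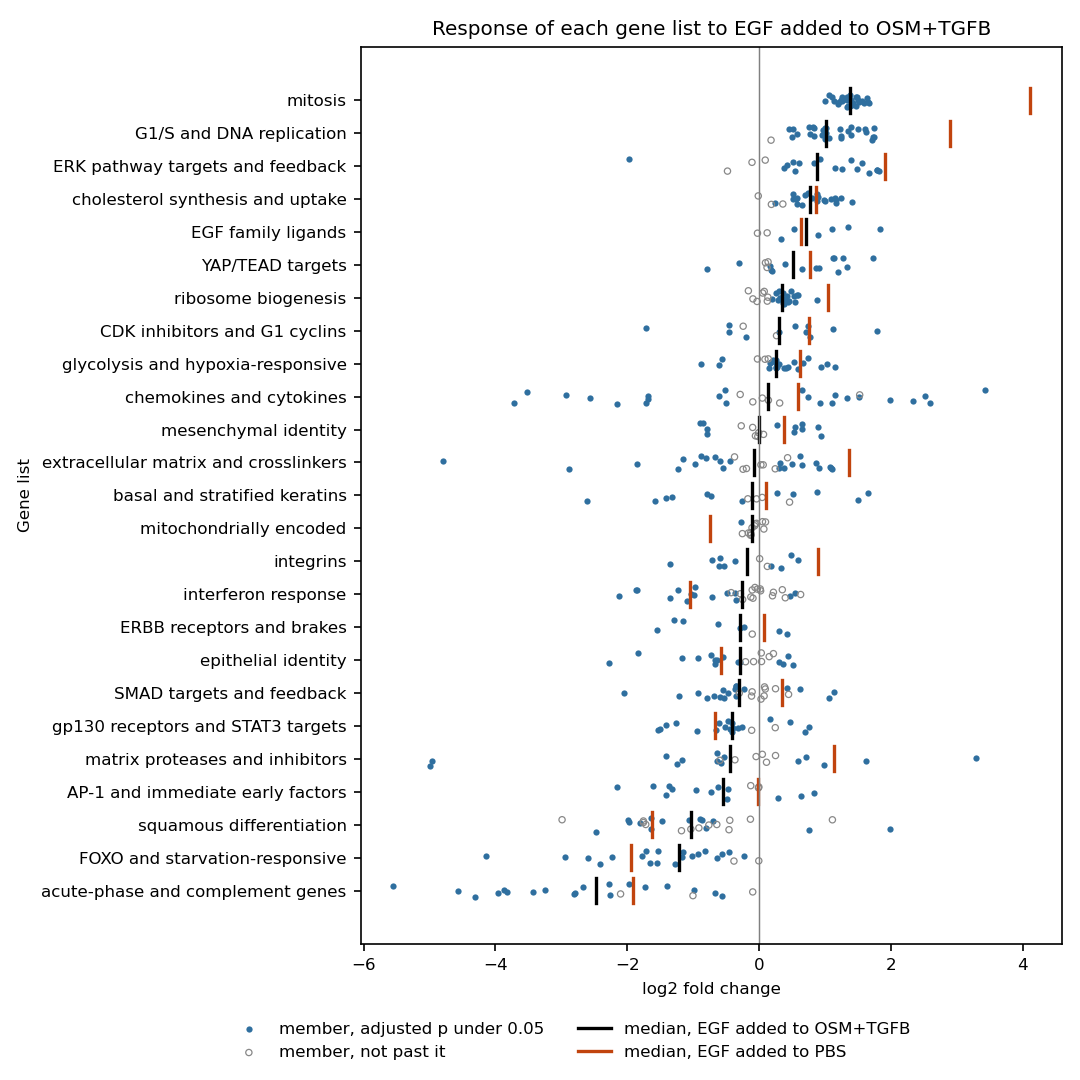
log2 fold change of every tested member of the 25 gene lists when EGF was added to OSM+TGFB (points; filled where the adjusted p was under 0.05), with the list median in black and the median for EGF added to PBS in red. Mitosis genes lie in a narrow band around 1.38, with a median of 4.11 for EGF added to PBS, and acute-phase and complement genes have the lowest median, -2.48.

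Genes of the gp130 pathway mostly fell. Of 21 receptors and STAT3 targets, 4 rose and 15 fell (median -0.41). SOCS3, the feedback inhibitor induced by STAT3, measured 159.8, 163 and 140.3 CPM with OSM+TGFB and 73.2, 82.7 and 85.1 CPM with EGF added and fell by -0.94 ± 0.11 (adjusted p = 2.2e-07). It stayed far above the PBS group, at 1.49 ± 0.318 CPM (mean ± SD, n = 3). STAT3 fell by -0.61 ± 0.06 from 564 to 370.4 CPM, the interleukin-6 receptor gene IL6R by -1.51 ± 0.11, the kinase gene PIM1 by -1.41 ± 0.15, the repressor gene BCL6 by -1.53 ± 0.13 and the transcription factor gene CEBPD by -1.26 ± 0.22. The OSM receptor gene OSMR was at -0.11 ± 0.07 (adjusted p = 0.193), and the gp130 gene IL6ST rose by 0.17 ± 0.05.

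No acute-phase or complement gene rose, and 19 of 22 fell, with a median of -2.48. C1R, the protease that starts the classical complement pathway, measured 189, 242 and 190.1 CPM with OSM+TGFB and 9.40, 11.9 and 10.4 CPM with EGF added and fell by -4.30 ± 0.14 (adjusted p = 3.1e-15). Its partner protease C1S measured 102, 126 and 104 CPM with OSM+TGFB and 6.63, 7.63 and 8.37 CPM with EGF added and fell by -3.88 ± 0.16 (adjusted p = 1.5e-13). For both, the EGF libraries lay more than 10 times below the others. SERPINA3, which encodes antichymotrypsin, fell by -2.28 ± 0.33 from 2969 to 609.9 CPM, C3 by -1.73 ± 0.17 and CFB, a protease of the alternative pathway, by -3.25 ± 0.24. The amyloid genes SAA1 and SAA2 fell by -1.97 ± 0.20 and -2.79 ± 0.27, and the complement genes C4A and C4B by -3.96 ± 1.04 and -4.56 ± 0.61; each pair is nearly identical, so the split of reads within it is uncertain. C1R, CFB, SAA1, C4A and C4B also have more than 1 row in the table, and the row with most counts is given. CD59, a complement inhibitor, was at -0.10 ± 0.06 (adjusted p = 0.213), and LCN2, which encodes lipocalin 2, had an adjusted p of 0.0511 with 14.8, 22.5 and 11.0 CPM with OSM+TGFB and 7.88, 10.6 and 5.67 CPM with EGF added; it was called with DESeq2 (adjusted p = 0.0229), with upper-quartile scaling (adjusted p = 0.0456) and without EGF+OSM+TGFB replicate 2 (-1.24) or OSM+TGFB replicate 3 (-1.22). C1R with all 3 ligands, at 10.6 ± 1.25 CPM, was lower than with PBS, at 15.9 ± 0.242 CPM.

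Of 27 SMAD targets and feedback genes, 4 rose, 14 fell and 9 were not called (median -0.30). SMAD7, the feedback inhibitor, measured 51.7, 53.0 and 51.5 CPM with OSM+TGFB and 49.5, 50.2 and 44.6 CPM with EGF added, at -0.11 ± 0.07 (adjusted p = 0.201). PMEPA1, another feedback gene, was at 0.10 ± 0.10 (adjusted p = 0.449). ID2, an inhibitor of basic helix-loop-helix factors, fell by -2.04 ± 0.20 from 10.7 to 2.61 CPM, and the inhibitory SMAD6 by -1.21 ± 0.27. CCN2, a matricellular growth factor, rose by 1.13 ± 0.11 from 46.0 to 101 CPM, the co-receptor TGFBR3 by 1.05 ± 0.10, the receptor TGFBR2 by 0.43 ± 0.07 and AMIGO2, a cell adhesion gene, by 0.61 ± 0.14.

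Matrix genes moved both ways. Of 30, 11 rose and 12 fell (median -0.08; -0.21 without EGF+OSM+TGFB replicate 2). FN1, which encodes fibronectin, measured 9276, 8548 and 8449 CPM with OSM+TGFB and 3963, 4223 and 3039 CPM with EGF added and fell by -1.23 ± 0.17 (adjusted p = 6.2e-06), with no overlap. LOX, the collagen crosslinking enzyme, measured 417, 443 and 289 CPM with OSM+TGFB and 58.0, 56.8 and 41.1 CPM with EGF added and fell by -2.88 ± 0.18 (adjusted p = 1.1e-10). COL1A1 fell by -1.15 ± 0.10, and THBS2 by -1.85 ± 0.40 at about 1 CPM. By contrast LAMA3 and LAMB3, which encode chains of a basement membrane laminin, rose by 1.08 ± 0.09 and 0.91 ± 0.10. The crosslinker TGM2 rose by 0.65 ± 0.17 and THBS1, which encodes thrombospondin 1, by 1.07 ± 0.22.

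Of 20 matrix proteases and inhibitors, 5 rose and 9 fell (median -0.45). MMP3, which encodes stromelysin 1, measured 79.1, 72.0 and 50.7 CPM with OSM+TGFB and 2.40, 2.54 and 1.50 CPM with EGF added and fell by -4.96 ± 0.24 (adjusted p = 4.0e-12). MMP13, which encodes collagenase 3, measured 14.5, 13.6 and 4.41 CPM with OSM+TGFB and 0.514, 0.349 and 0.125 CPM with EGF added and fell by -4.99 ± 0.51 (adjusted p = 5.9e-08). Every EGF library was lower for both. The plasminogen activators moved the other way: PLAT, the tissue type, measured 42.4, 43.5 and 63.7 CPM with OSM+TGFB and 169, 154 and 139 CPM with EGF added and rose by 1.63 ± 0.13 (adjusted p = 2.6e-09), PLAU, the urokinase type, rose by 0.99 ± 0.13 and its receptor PLAUR by 0.71 ± 0.10. ADAMTS1, a protease of proteoglycans, rose by 3.30 ± 0.30 from 0.220 to 2.18 CPM. MMP14, a membrane-bound collagenase, was at 0.11 ± 0.08 (adjusted p = 0.246). Of 12 integrins, 4 rose and 6 fell (median -0.18). ITGA6 and ITGB1, which can together form a laminin receptor, rose by 0.60 ± 0.09 and 0.48 ± 0.07. ITGA1 fell by -0.72 ± 0.07 and ITGB8 by -1.35 ± 0.10, and ITGB4 was also called lower. ITGB3 fell by -0.61 ± 0.21 (adjusted p = 0.0204), a call lost without OSM+TGFB replicate 2, without EGF+OSM+TGFB replicate 3, without a filter on low counts and with DESeq2 (adjusted p = 0.114).

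Epithelial identity genes fell more often than they rose, 11 against 4 of 21 (median -0.29). CDH1, which encodes E-cadherin, measured 372, 444 and 409 CPM with OSM+TGFB and 482, 483 and 397 CPM with EGF added, with overlapping groups, at 0.15 ± 0.13 (adjusted p = 0.335). The epithelial transcription factor genes ELF3, GRHL1 and GRHL3 fell by -2.28 ± 0.39, -1.84 ± 0.16 and -0.93 ± 0.15, and RAB25, a trafficking GTPase of epithelia, by -1.17 ± 0.20. Of 17 mesenchymal genes, 7 rose and 4 fell (median -0.01). VIM, which encodes vimentin, rose by 0.27 ± 0.07 from 1613 to 1949 CPM, CDH2, which encodes N-cadherin, by 0.65 ± 0.08 and the actin-binding gene TAGLN by 0.94 ± 0.18. FOXC2 and TWIST1, transcription factors known from epithelial-mesenchymal transition, fell by -0.90 ± 0.09 and -0.86 ± 0.15. CDH11 rose by 0.89 ± 0.34 (adjusted p = 0.0345), a call lost without any 1 of OSM+TGFB replicates 1, 2 and 3 and without EGF+OSM+TGFB replicates 1 or 3.

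Of 16 keratins, 5 rose and 7 fell (median -0.10). KRT15, a keratin of basal progenitors, measured 60.6, 50.9 and 27.7 CPM with OSM+TGFB and 7.73, 9.20 and 5.83 CPM with EGF added and fell by -2.62 ± 0.40 (adjusted p = 2.0e-05). KRT16, a keratin of activated epidermis, fell by -1.59 ± 0.19 and KRT5, the main basal keratin, by -0.27 ± 0.06. The hair keratins KRT81 and KRT86 rose by 1.66 ± 0.15 and 1.50 ± 0.20; they are close copies, and their reads may be shared. Squamous differentiation genes included 2 that rose and 12 that fell of 27 (median -1.04). S100A8, a subunit of calprotectin, measured 1167, 1391 and 1395 CPM with OSM+TGFB and 327, 389.9 and 280.5 CPM with EGF added and fell by -1.99 ± 0.17 (adjusted p = 6.3e-09). S100A7, which encodes psoriasin, fell by -1.80 ± 0.21 and SPRR1A, of the cornified envelope, by -1.97 ± 0.60. IVL, which encodes the envelope protein involucrin, went the other way, at 0.75 ± 0.15 from 25.9 to 43.5 CPM, as did CRCT1, at 1.99 ± 0.49.

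Division genes rose almost without exception. All 30 mitosis genes were higher with EGF (median 1.38, range 0.99 to 1.67) and 29 of 30 genes of G1/S and DNA replication (median 1.02). MKI67, which encodes the proliferation antigen Ki-67, measured 76.7, 80.0 and 113 CPM with OSM+TGFB and 256, 248 and 337 CPM with EGF added and rose by 1.64 ± 0.22 (adjusted p = 3.8e-06). CDC20, an activator of the anaphase-promoting complex, measured 31.3, 31.2 and 48.3 CPM with OSM+TGFB and 92.9, 90.8 and 150.3 CPM with EGF added and rose by 1.59 ± 0.21 (adjusted p = 3.1e-06). CCNB2, a mitotic cyclin, measured 11.7, 11.6 and 14.7 CPM with OSM+TGFB and 24.4, 23.2 and 34.2 CPM with EGF added and rose by 1.11 ± 0.17 (adjusted p = 1.4e-05). PLK1, a mitotic kinase, measured 23.5, 24.1 and 31.7 CPM with OSM+TGFB and 62.1, 60.1 and 96.7 CPM with EGF added and rose by 1.47 ± 0.19 (adjusted p = 2.0e-06). In all 4 genes replicate 3 was the highest of its group, and no EGF library overlapped the others. NUSAP1, a spindle protein, rose by 1.67 ± 0.26 and the checkpoint kinase BUB1 by 1.65 ± 0.22.

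The promoters of those 4 mitosis genes are printed because they share the cell cycle homology region (CHR), TTTGAA, through which mitotic genes are known to be held off in resting cells. Searched on both strands over 250 bases before the start, TTTGAA was found in 14 of the 24 mitosis genes with a promoter in the RefSeq table (58.3%), against 1012 of 11408 genes tested (8.87%) and 13.6% of all 27305 promoters. The windows below are the last 80 bases before each start (GRCh38.p14): MKI67 chr10:128126424-128126503, minus strand; CCNB2 chr15:59105066-59105145, plus strand; PLK1 chr16:23678809-23678888, plus strand; CDC20 chr1:43358901-43358980, plus strand. CHR letters are in capitals, and MKI67 has 2 such runs.
MKI67: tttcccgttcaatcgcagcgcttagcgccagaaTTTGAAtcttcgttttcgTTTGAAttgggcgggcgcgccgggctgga
CCNB2: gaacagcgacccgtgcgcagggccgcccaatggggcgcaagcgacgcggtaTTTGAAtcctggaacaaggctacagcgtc
PLK1: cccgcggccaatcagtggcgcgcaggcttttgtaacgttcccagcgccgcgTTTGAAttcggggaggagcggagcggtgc
CDC20: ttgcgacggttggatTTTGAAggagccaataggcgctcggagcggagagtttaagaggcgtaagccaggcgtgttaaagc

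E2F1, a transcription factor that starts S phase and acts on its own promoter, measured 2.36, 2.16 and 3.34 CPM with OSM+TGFB and 8.52, 7.39 and 10.1 CPM with EGF added and rose by 1.73 ± 0.19 (adjusted p = 7.0e-08). Its promoter (GRCh38.p14, chr20:33686386-33686465, minus strand) is shown with an E2F site, TTTNGCGC, in capitals. On both strands this motif was in 8 of 25 promoters of the G1/S and replication list (32.0%) and in 2.40% of genes tested. CHR and E2F matches were counted separately, whether or not they overlapped. The licensing genes CDC6 and MCM10 rose by 1.75 ± 0.20 and 1.75 ± 0.25 and the ribonucleotide reductase subunit RRM2 by 1.72 ± 0.21; E2F2 was at 0.18 ± 0.20 (adjusted p = 0.478). Of 13 CDK inhibitors and G1 cyclins, 7 rose and 4 fell. CCND2 rose by 0.77 ± 0.10 and RBL1, a pocket protein that is itself an E2F target, by 1.13 ± 0.13. CDKN1A, which encodes the CDK inhibitor p21, measured 481, 469.8 and 409 CPM with OSM+TGFB and 380.5, 416 and 355 CPM with EGF added, with overlapping groups, at -0.24 ± 0.12 (adjusted p = 0.104), and called in the fit to the 6 libraries alone (-0.25, adjusted p = 0.0226). CDKN1C, which encodes p57, fell by -1.71 ± 0.54 (adjusted p = 0.013), a call lost without EGF+OSM+TGFB replicate 3.
E2F1: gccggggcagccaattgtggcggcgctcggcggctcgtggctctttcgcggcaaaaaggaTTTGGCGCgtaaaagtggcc

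Starvation genes fell. Of 22 FOXO and starvation-responsive genes none rose and 20 fell (median -1.22). FBXO32, a ubiquitin ligase subunit of atrophy, measured 251, 263 and 149.8 CPM with OSM+TGFB and 11.9, 16.8 and 9.03 CPM with EGF added and fell by -4.15 ± 0.31 (adjusted p = 2.4e-09). BCL2L11, which encodes the pro-death protein BIM, measured 109, 117 and 80.1 CPM with OSM+TGFB and 16.9, 19.6 and 14.2 CPM with EGF added and fell by -2.60 ± 0.14 (adjusted p = 4.3e-12). PDK4, a kinase that spares glucose, measured 35.7, 31.5 and 24.5 CPM with OSM+TGFB and 3.79, 5.26 and 3.01 CPM with EGF added and fell by -2.94 ± 0.23 (adjusted p = 2.3e-09). The groups were well apart for these 3 genes, and OSM+TGFB replicate 3 was the lowest of its group in each. KLHL24 fell by -2.41 ± 0.20. CCNG2 was at -0.00 ± 0.09 (adjusted p = 0.98) and ARRDC4 at -0.38 ± 0.16 (adjusted p = 0.0594), the latter called with DESeq2 (adjusted p = 0.0344) and without EGF+OSM+TGFB replicate 1, at -0.55. A FOXO site, TGTTTAC on either strand, was in 2 of 20 promoters of the list (10.0%) and in 2.04% of genes tested.

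Cholesterol genes rose, 21 of 24 with none falling (median 0.78). FDPS, which makes farnesyl diphosphate, measured 221, 252 and 325 CPM with OSM+TGFB and 672, 713 and 724 CPM with EGF added and rose by 1.40 ± 0.15 (adjusted p = 1.6e-07). The sterol sensor INSIG1 rose by 1.24 ± 0.16, the synthase HMGCS1 by 1.16 ± 0.17 and the desaturase SCD by 1.17 ± 0.13. Of 26 glycolysis and hypoxia-responsive genes, 20 rose and 3 fell (median 0.26): the glucose transporter SLC2A3 rose by 1.15 ± 0.24, ENO2, an enolase, by 1.03 ± 0.18 and the peptide hormone ADM by 0.95 ± 0.12, and NDRG1 fell by -0.89 ± 0.10. Ribosome biogenesis genes rose in 21 of 28 with none falling (median 0.35), led by TCOF1, a factor of ribosomal RNA transcription, at 0.88 ± 0.12, with NOP56, NOP16 and RRS1 at 0.58 ± 0.09, 0.58 ± 0.10 and 0.54 ± 0.10. Of 18 YAP/TEAD targets 13 rose and 2 fell (median 0.52), with the coagulation trigger F3 at 1.33 ± 0.12, the nucleotidase NT5E at 1.27 ± 0.13 and FJX1 at 1.20 ± 0.14. Of the 13 protein genes of the mitochondrial genome, 1 fell (2 or 3 under other settings): MT-CO1, a subunit of cytochrome oxidase, at -0.28 ± 0.09 (adjusted p = 0.00891). The share of all counts from mitochondrial genes was 1.44% ± 0.0448 without EGF and 1.30% ± 0.121 with it (SD, n = 3).

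The same dose of EGF was added to PBS in 3 other libraries, and that comparison shares no library with this one. EGF added to PBS changed 11762 rows (70.8%). Of 14872 gene symbols, 6826 were called in both comparisons, and 6194 of these moved in the same direction, which is 78.2% of the genes called in OSM+TGFB and 56.0% of those called in PBS. The effect in OSM+TGFB was smaller: over the genes called in either comparison its slope on the effect in PBS was 0.400 (r = 0.634 across genes, which are not independent). The difference between the effects, tested as an interaction, was called for 7717 rows (46.5%), higher in OSM+TGFB in 20.9% of all rows and lower in 25.6%. This lean depended on the scaling: 44.9% of the called differences were higher here, but 51.8% with upper-quartile scaling. Of the 6194 genes with a shared direction, 3346 differed in size, 3086 of them with the smaller effect in OSM+TGFB and 260 with the larger. A further 632 genes were called in opposite directions. A called difference is nearly bound to follow from that, and all of them had one.

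**Figure D3:**
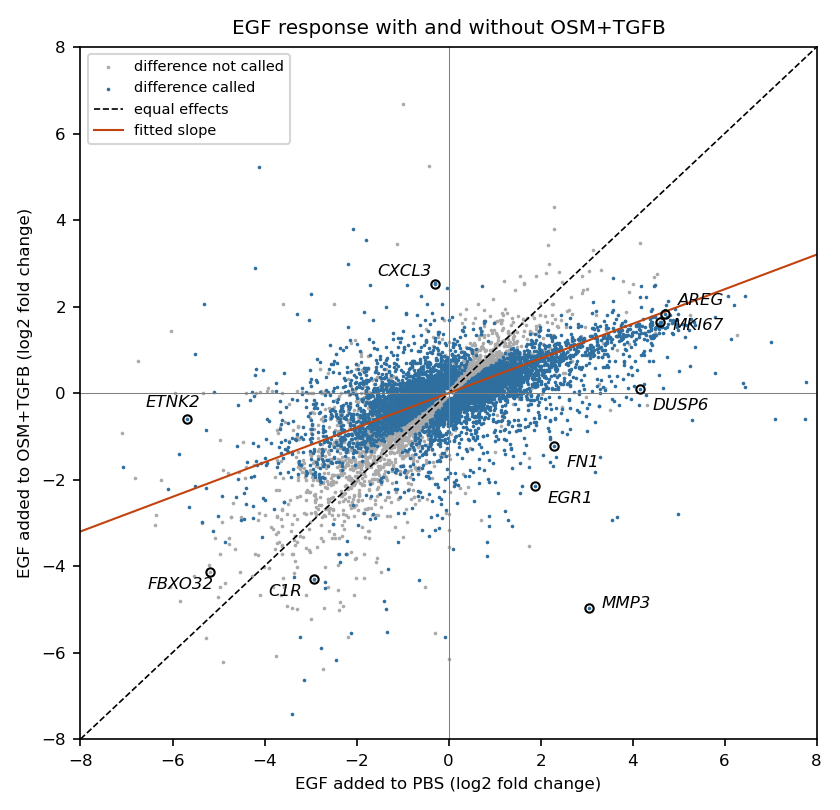
log2 fold change of each gene called in at least 1 comparison for EGF added to PBS (x axis) and EGF added to OSM+TGFB (y axis), blue where the 2 effects differed at an adjusted p under 0.05. Most points lie between the dashed line of equal effects and the x axis, along the fitted slope of 0.400; 4 genes lie outside the axes.

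EGR1, FN1 and DUSP6 were among the list genes whose effects differed. EGR1 rose with EGF in PBS, from 29.5 ± 3.13 to 108 ± 3.55 CPM (mean ± SD, n = 3), and fell in OSM+TGFB, from 96.2 ± 3.95 to 21.7 ± 3.97, a difference of -4.02 ± 0.25 (adjusted p = 6.0e-11). FN1 rose in PBS from 132 ± 18.4 to 648 ± 116 CPM and fell in OSM+TGFB from 8758 ± 452 to 3742 ± 622, a difference of -3.52 ± 0.25 (adjusted p = 5.9e-10). The fibronectin level with all 3 ligands was thus below that with OSM+TGFB but above those with PBS or EGF. DUSP6 rose in PBS from 5.39 ± 0.377 to 96.1 ± 6.58 CPM, while OSM+TGFB without EGF was already at 62.5 ± 4.86, and the difference was -4.06 ± 0.26 (adjusted p = 9.7e-11). MMP3 held 1 count over the 3 PBS libraries and 12 over the 3 EGF libraries, against its fall in OSM+TGFB, and the interaction had an adjusted p of 1.2e-05.

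All 30 mitosis genes and all 30 G1/S genes had a smaller effect in OSM+TGFB than in PBS (each difference called). A small effect was shared with OSM alone: the medians for EGF added to OSM were 0.88 for mitosis and 1.11 for G1/S. They were 1.38 and 1.02 in OSM+TGFB, and 3.62 and 2.15 for EGF added to TGFB. MKI67 went from 21.5 ± 7.11 to 519 ± 39.2 CPM in PBS, a difference from the effect in OSM+TGFB of -2.95 ± 0.32 (adjusted p = 2.3e-07). Its level with OSM alone was 309 ± 55.8 CPM, that with TGFB alone 13.9 ± 2.11 and that with OSM+TGFB 89.9 ± 20.0. All 12 integrins and 24 of 28 ribosome biogenesis genes also had a lower effect in OSM+TGFB than in PBS. The opposite held for all 13 mitochondrial genes, with a median of -0.75 in PBS and -0.11 in OSM+TGFB. MT-CO1, at -0.92 ± 0.09 in PBS, had a difference of 0.64 ± 0.12 (adjusted p = 1.2e-04).

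Of the genes below, C1R, CXCL3 and PLCB4 had a larger effect in OSM+TGFB than in PBS, while ETNK2, GPX2 and TFPI2 had a smaller one. C1R fell in PBS by -2.93 ± 0.17 and further in OSM+TGFB, with a difference of -1.37 ± 0.23 (adjusted p = 3.8e-05). CXCL3 was at -0.28 ± 0.22 (adjusted p = 0.248) in PBS, with a difference of 2.80 ± 0.30 (adjusted p = 5.5e-08), and PLCB4 rose by 0.73 ± 0.17 in PBS, with a difference of 1.75 ± 0.23 (adjusted p = 1.0e-06). FBXO32 fell by -5.18 ± 0.33 in PBS; its difference was 1.04 ± 0.42 (adjusted p = 0.0519), called with DESeq2, with upper-quartile scaling and without EGF+OSM+TGFB replicate 3 (1.16) or OSM+TGFB replicate 2 (1.12). The named genes with the highest differences fell with EGF in PBS and were lower with OSM+TGFB than with PBS. ETNK2, an ethanolamine kinase, went from 147 to 2.85 CPM in PBS and from 4.91 to 3.25 in OSM+TGFB, a difference of 5.08 ± 0.26 (adjusted p = 1.1e-12). GPX2, a glutathione peroxidase, went from 74.9 to 1.92 and from 0.697 to 0.385, a difference of 4.42 ± 0.38 (adjusted p = 2.0e-09). SEMA6D, a semaphorin, and DNASE1L2, a nuclease of keratinocytes, had differences of 3.88 ± 0.52 and 3.54 ± 0.61. TFPI2, a protease inhibitor, rose in both, from 0.192 to 24.6 and from 2.41 to 5.52, with a difference of -5.81 ± 0.40 (adjusted p = 8.5e-11).

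**Figure D4:**
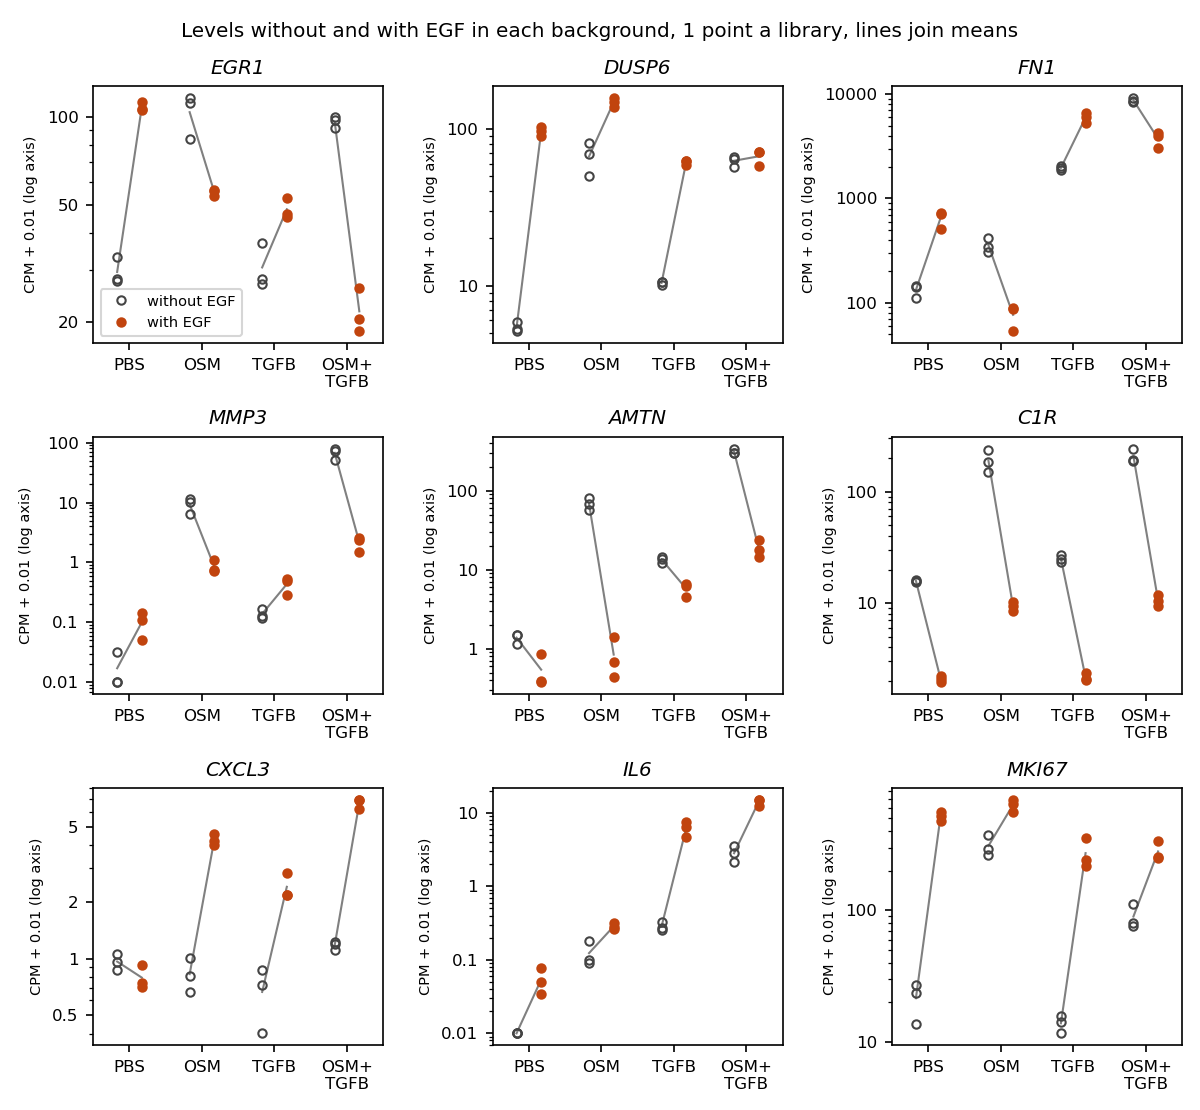
Level of 9 genes without EGF (open circles) and with EGF (filled circles) in PBS, OSM, TGFB and OSM+TGFB, on a log axis of CPM + 0.01, with 1 point a library and lines joining the means. EGR1 and FN1 rise with EGF in PBS and TGFB and fall in OSM and OSM+TGFB; MKI67 rises in all 4.

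OSM alone was the nearest reference. EGF added to OSM changed 9874 rows (59.4%), and its difference from EGF added to OSM+TGFB was called for 2522 rows (15.2%), 1483 when EGF+OSM replicate 3 was left out. EGF added to TGFB changed 11099 rows (66.8%), with a called difference for 5483 (33.0%). The slope of the effect in OSM+TGFB was 0.699 on that in OSM and 0.482 on that in TGFB. EGR1 changed by -0.91 ± 0.17 with EGF in OSM and by 0.66 ± 0.17 in TGFB, and FN1 by -2.22 ± 0.18 and 1.61 ± 0.18, so both genes fell with EGF in each background that held OSM and rose in each that did not.

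Genes were ranked by the differences only where the EGF+OSM+TGFB and OSM+TGFB libraries did not overlap, so a gene overlapping there could not be named. Against OSM alone, the ranked genes with the lowest difference rose with EGF in OSM and fell in OSM+TGFB. DKK1, a Wnt inhibitor, went from 7.80 to 20.4 CPM in OSM and from 14.1 to 6.44 in OSM+TGFB, a difference of -2.51 ± 0.18 (adjusted p = 9.9e-09). SORL1, a sorting receptor, had a difference of -2.26 ± 0.16, ARNT2, a basic helix-loop-helix factor, one of -2.22 ± 0.24, and HAS3, a hyaluronan synthase, one of -2.20 ± 0.17. Among the highest differences of the ranked genes were those of KANK4 and AMTN, which EGF lowered more in OSM. KANK4, a scaffold protein, went from 33.7 to 1.93 CPM in OSM and from 209 to 103 in OSM+TGFB, a difference of 3.11 ± 0.27 (adjusted p = 2.6e-07). AMTN went from 68.3 to 0.835 in OSM, a difference of 2.24 ± 0.34 (adjusted p = 2.1e-04).

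Against TGFB alone, MMP3 had the lowest difference of the genes ranked by the same rule, -6.67 ± 0.57 (adjusted p = 1.7e-08). Its levels were 0.129 CPM for TGFB and 0.425 for EGF+TGFB. TREM1, an immune receptor, went from 0.449 to 4.02 CPM in TGFB and from 46.5 to 16.7 in OSM+TGFB, a difference of -4.66 ± 0.41 (adjusted p = 1.8e-08). AMPH, which encodes the endocytic protein amphiphysin, had a difference of -4.64 ± 0.47 and TFPI2 one of -3.76 ± 0.36. Highest of the ranked genes were GPX2 and ETNK2, at 4.13 ± 0.40 and 3.86 ± 0.27. PKDCC, a secreted kinase, followed at 3.68 ± 0.76 and CXCR4, a chemokine receptor, at 3.62 ± 0.57. CXCR4 fell with EGF from 17.2 to 0.348 CPM in TGFB and from 1.87 to 0.492 in OSM+TGFB.

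Genes were also grouped by their response to OSM or TGFB alone against PBS (adjusted p under 0.05 and at least 2-fold; 9.99% of rows were higher and 9.77% lower with OSM, and 3.88% higher and 1.65% lower with TGFB), measured in libraries that the EGF comparison does not use. Of 1529 genes higher with OSM alone, EGF raised 46.6% and lowered 26.0% when added to OSM+TGFB, with a median of 0.30. Of 1478 genes lower with OSM alone, EGF raised 9.81% and lowered 40.3%, with a median of -0.53. Over all 14872 symbols tested, 26.8% were higher and 26.4% lower, with a median of 0.003. Of 607 genes higher with TGFB alone, EGF raised 28.2% and lowered 33.6%, with a median of -0.08. Of 244 genes lower with TGFB alone, EGF raised 9.02% and lowered 36.9%, with a median of -0.68.

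The 803 genes that OSM raised and that were not called with TGFB had a median of 0.53, with 51.6% higher and 23.0% lower. The 138 genes that TGFB raised and that were not called with OSM had a median of -0.35, with 17.4% higher and 37.7% lower. AMTN, at 1.37 CPM with PBS, 68.3 with OSM and 13.5 with TGFB, is one gene raised by both ligands that EGF lowered.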

How the data were processed

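The authors deposited 1 table of estimated counts per gene for 27 libraries, whole numbers as deposited (rounding changed nothing); per the submitters' processing notes they used Trim Galore 0.4.3, cutadapt 1.10, FastQC 0.11.5, kallisto 0.46.2 and R 3.5.0, with GRCh38.p5 and hg38 named as builds. Kallisto splits reads among similar transcripts, so close copies are uncertain. Groups came from the labels. Of 40487 rows, 16611 passed edgeR's filter on low counts (14872 symbols). edgeR 4.0.16 (R 4.3.3) fitted all 9 groups with TMM scaling and the quasi-likelihood test (18 residual degrees of freedom, prior count 0.125, biological coefficient of variation 10.1%), with Benjamini-Hochberg adjustment over all rows and a threshold of 0.05. Interactions compared the EGF effect between backgrounds.

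Named genes were first the 12 highest and 12 lowest protein-coding genes with at least 5 CPM in the higher group and no overlap. Up to 4 called genes per list with at least 1 CPM were added, and 4 each way per interaction. Those for interactions were protein-coding and called, with at least 5 CPM in 1 of the 4 groups. They too had no overlap between EGF+OSM+TGFB and OSM+TGFB. Further list members were added whatever they showed. The comparison and the 25 lists were chosen with earlier results of these data known. Data were simulated for EGF added to OSM+TGFB over 16441 rows. Changes were put into 67 rows at 1.5-fold, 67 at 2-fold and 66 at 4-fold, none of them with low counts. The test called 71.6%, 91.0% and 98.5% of these, and 0.0616% of the 16241 unchanged rows. In the real comparison 50.1% of rows were called, so these rates may not carry over to it. Totals were 32.8 to 47.1 M counts; replicates differed beyond counting error (chi-square per degree of freedom 7.56 to 13.8), so the spread between libraries limits the precision. Alternatives were RLE and upper-quartile scaling, no filter, a replicate block, 1 row per symbol, the 6 libraries alone, DESeq2 1.42.0, a 2-fold limit and leaving out each library. Replicate numbers were not used as pairs. Promoters are from RefSeq (GRCh38.p14), matched by symbol.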

Additional observations from a re-analysis of the deposited data

Results flagged for a closer look

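The listed results are those in which the effect of EGF in OSM+TGFB differed from its effect in another background by a test of the difference itself (edgeR interaction, adjusted p under 0.05). The counts were 7717 rows against PBS, 2522 against OSM and 5483 against TGFB. All values are differences of log2 fold changes, positive where the effect was higher in OSM+TGFB. A higher effect can thus be a smaller fall, as for ETNK2 and GPX2 against PBS.

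Against PBS, the named genes with a lower effect were TFPI2 (-5.81), DUSP6 (-4.06), EGR1 (-4.02), FN1 (-3.52), MKI67 (-2.95) and C1R (-1.37), and those with a higher effect were ETNK2 (5.08), GPX2 (4.42), SEMA6D (3.88), DNASE1L2 (3.54), CXCL3 (2.80), PLCB4 (1.75) and MT-CO1 (0.64). TNFRSF6B and MFAP2 had no count in the PBS libraries and MMP3 had 1, so only their adjusted p is given: 1.4e-07, 3.3e-09 and 1.2e-05, all for a lower effect in OSM+TGFB.

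Against OSM, DKK1 (-2.51), SORL1 (-2.26), ARNT2 (-2.22) and HAS3 (-2.20) had a lower effect in OSM+TGFB, and KANK4 (3.11) and AMTN (2.24) a higher one. TMEM265 had no count in the EGF+OSM libraries and KCNJ12 had 3, with adjusted p-values of 0.00315 and 0.0179 for a higher effect; the second was lost without EGF+OSM replicate 3 or OSM replicate 2.

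Against TGFB, MMP3 (-6.67), TREM1 (-4.66), AMPH (-4.64) and TFPI2 (-3.76) had a lower effect in OSM+TGFB, and GPX2 (4.13), ETNK2 (3.86), PKDCC (3.68) and CXCR4 (3.62) a higher one.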

How the results depend on the processing

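The count for EGF added to OSM+TGFB (8323 rows) was 8301 with RLE scaling, 8316 with upper-quartile scaling, 7739 without a filter, 8053 with 1 row per symbol, 7766 from the 6 libraries alone and 8233 with DESeq2. With a 2-fold limit the counts were 1815 for EGF in OSM+TGFB, 4486 in PBS, 2374 in OSM and 3808 in TGFB, and 2231, 312 and 1430 for the differences from PBS, OSM and TGFB. Leaving out 1 library gave 7255 to 8052 for OSM+TGFB, 11153 to 11418 for PBS, 8880 to 9805 for OSM and 10493 to 10643 for TGFB, and 7157 to 7557, 1483 to 3396 and 4780 to 5286 for those differences; the slope on the effect in PBS was 0.377 to 0.426. Libraries with the same replicate number had correlated deviations of 0.056 to 0.127, not all above 0.1, so the numbers were not taken as pairs; each of the 6 correlated best with its own number, and the replicate block gave 8753 rows. With the block, OSMR (-0.11, adjusted p = 0.0297), LCN2 (-0.98, adjusted p = 2.0e-04), CDKN1A (-0.24, adjusted p = 2.4e-04), ARRDC4 (-0.39, adjusted p = 0.0127) and the difference of FBXO32 from PBS (1.08, adjusted p = 0.0102), not called without it, were called. Upper-quartile scaling moved the median of all rows to -0.153 for EGF in PBS and -0.100 in TGFB. It moved the share of called differences that were higher in OSM+TGFB from 44.9% to 51.8% against PBS. Against TGFB that share went from 42.3% to 50.4%. Against OSM the share was 54.1%, but 45.5% with RLE scaling. Of 196 results on named genes, 180 kept direction and side of the threshold under every alternative run. Of those not called, BTC (-0.20 to 0.12 over the single libraries left out) turned to 0.12, 0.10 and 0.04 without EGF+OSM+TGFB replicate 3, OSM+TGFB replicate 2 and OSM+TGFB replicate 3, E2F2 (-0.004 to 0.31) to -0.004 without OSM+TGFB replicate 1, and CCNG2 (-0.071 to 0.052) to 0.019 without a filter, 0.052 without EGF+OSM+TGFB replicate 3 and 0.02 without OSM+TGFB replicate 2. The cause was not tested. Of the list counts and medians under the alternatives, 870 held and 30 moved. A count was taken to hold between 2/3 and 3/2 of its main value, so it could still change. A median held if it moved by no more than 1 SD of its values in the 3 EGF+OSM+TGFB libraries. The 3 libraries a side limit precision for genes under about 1 CPM.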

Other observations

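Chemokine and cytokine genes moved both ways, 12 up and 11 down of 29 (median 0.14). CXCL8, a neutrophil chemokine, measured 4.35, 5.61 and 4.87 CPM with OSM+TGFB and 13.8, 16.6 and 12.3 CPM with EGF added and rose by 1.52 ± 0.22 (adjusted p = 4.8e-06). CXCL5, of the same class, rose by 3.42 ± 0.61 from 0.114 to 1.26 CPM. CXCL14, a chemokine of resting epithelium, measured 4.01, 4.80 and 2.73 CPM with OSM+TGFB and 0.465, 1.15 and 0.408 CPM with EGF added and fell by -2.56 ± 0.40 (adjusted p = 1.4e-05). Of 30 interferon response genes, 13 fell and 2 rose (median -0.27), or 1 rose when any of several single libraries was left out. IFI44L fell by -2.13 ± 0.16 from 6.72 to 1.53 CPM, IFITM1 by -1.87 ± 0.27, RSAD2, which encodes the antiviral enzyme viperin, by -1.85 ± 0.41 and IFIT2 by -1.35 ± 0.25.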
